A study of Mus musculus with 6 samples.

Results

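The antioxidant and glutathione enzymes followed here are 37 genes that make, recycle or use glutathione and thioredoxin, or remove superoxide and peroxides, together with the NRF2 regulator pair. They were chosen by symbol from the deposited count table of mouse fat precursors becoming beige adipocytes. All 37 were found among the 45808 gene lines, and all 37 passed the filter on low counts. The series title concerns Naa10, an amino-terminal acetyltransferase, as a brake on heat production by beige fat cells. The libraries analysed here carry the label WT, wild-type, and each day has 2 libraries, numbered 76 and 77. The cells were stromal-vascular cells, the fraction of fat tissue that holds adipocyte precursors, freed with collagenase from inguinal white fat pads of male mice aged 8 weeks. At day 0 they were confluent and had received no induction medium. At day 2 they had spent 2 days in medium with rosiglitazone (1 µM), IBMX (0.5 mM), indomethacin (125 µM), dexamethasone (5 µM), insulin (850 nM) and T3, a thyroid hormone (1 nM). At day 6 they had passed on to maintenance medium with insulin, T3 and rosiglitazone at those doses. The protocol names no sort of the cells, so each library holds the mixed culture.

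As background, cells meet hydrogen peroxide and lipid peroxides with paired enzyme systems. Superoxide dismutases turn superoxide into hydrogen peroxide, which catalase, glutathione peroxidases and peroxiredoxins remove. Glutathione reductase and the thioredoxin reductases restore the reduced thiols with NADPH, and glutathione transferases join glutathione to reactive lipids and foreign compounds. The transcription factor NRF2, which its partner KEAP1 marks for destruction, switches on many of these genes under oxidative stress. In fat cells the same enzymes serve next to mitochondria and peroxisomes that burn fatty acids.

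Counts in genes ran between 22522221 and 29458374 per library. The unit of level is CPM, a count divided by its library's size after edgeR's TMM scaling, and values are given for replicate 76 and then 77. Calls are edgeR quasi-likelihood tests with an adjusted p under 0.05, and no p-value is drawn from the member list itself. Means carry the SD of n = 2 libraries per day. Summed adipocyte markers reached 868 to 998 CPM at day 0, 9987 to 10592 CPM at day 2 and 48591 to 57444 CPM at day 6. Summed progenitor markers lay at 5255 to 5332, 2761 to 3036 and 2448 to 3081 CPM on those days. Of the 12 adipocyte markers tested, 12 were higher at day 6 than at day 0, and 11 of 12 progenitor markers were lower. The sum of 13 macrophage markers was 46.7 to 54.2 CPM at day 0, 34.0 to 69.0 at day 2 and 65.1 to 165 at day 6, with replicate 76 of day 6 the highest library. Of 10 macrophage markers tested, 7 were higher at day 6 than at day 0. Summed mural cell markers were 258 to 280, 57.7 to 61.8 and 226 to 231 CPM, and summed endothelial markers 37.9 to 42.5, 7.91 to 8.26 and 18.7 to 26.6 CPM. Summed Schwann cell markers were 123 to 140.2, 24.4 to 27.1 and 36.4 to 36.9 CPM. The globin genes Hba-a1, Hba-a2, Hbb-bs and Hbb-bt, which define red cells, had 0 counts in every library. The wider list of erythroid markers did have counts, with a sum of 5.89 to 6.38 CPM at day 0. That sum was at most 1.94 CPM at day 2 and 5.05 to 6.13 CPM at day 6. Of 2 erythroid markers tested, 1 was lower at day 2 than at day 0. At day 6 against day 2, 1 was higher, and at day 6 against day 0 neither passed. The lymphocyte markers summed to at most 0.371 CPM. The part of the adipocyte, progenitor, macrophage, mural, endothelial, Schwann cell and erythroid markers in the results below was not tested. In bulk cultures, fewer cells of a type and less RNA per cell cannot be told apart.

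The promoters shown here bear on NRF2, which binds the antioxidant response element, whose core was searched as TGACNNNGC, with N for any base. The related AP-1 site was searched as TGANTCA, and the 2 motifs can overlap. In the 250 bases before the start, on both strands, the antioxidant core occurred in 7 of the 31 members found in the RefSeq promoter table (22.581%), and in 11.515% of its 27025 genes. Those 7 were Nfe2l2, Gclm, Txnrd1, Prdx1, Sod1, Gsta3 and Mgst1. Hmox1, Gclc, Gsr, Prdx6, Sod3 and Gsta4 had no entry in that source and were not searched. The AP-1 site occurred in Prdx1, Srxn1 and Gstp1, which is 9.677% of the members, and in 7.819% of all genes. A match of letters describes the window only and is no evidence of binding. The 4 promoters below are shown because their genes took 3 different courses over the days, as given in the results on each gene. All are RefSeq sequences of GRCm38.p6, on the plus strand, and capitals mark the antioxidant core or the AP-1 site. Srxn1 (chr2:152105274-152105523) has AP-1 sites 102 to 96 and 45 to 39 bases before the start. The second site with its next bases reads TGAGTCAgc, a stretch that a search for TGACNNNGC does not find. Txnrd1 (chr10:82858956-82859205) has the antioxidant core 92 to 84 bases before 1 of its annotated starts, on the opposite strand. Prdx1 (chr4:116685349-116685598) has an AP-1 site 237 to 231 bases before the start and an antioxidant core 133 to 125 bases before it, which overlaps an AP-1 site. Gclm (chr3:122245307-122245556) has the core 134 to 126 bases before the start, on the opposite strand.
Srxn1: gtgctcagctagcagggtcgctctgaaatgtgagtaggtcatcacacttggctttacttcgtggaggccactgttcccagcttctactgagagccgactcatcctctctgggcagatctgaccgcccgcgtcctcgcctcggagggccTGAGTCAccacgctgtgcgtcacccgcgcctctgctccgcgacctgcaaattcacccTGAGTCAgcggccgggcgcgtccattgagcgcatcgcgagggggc
Txnrd1: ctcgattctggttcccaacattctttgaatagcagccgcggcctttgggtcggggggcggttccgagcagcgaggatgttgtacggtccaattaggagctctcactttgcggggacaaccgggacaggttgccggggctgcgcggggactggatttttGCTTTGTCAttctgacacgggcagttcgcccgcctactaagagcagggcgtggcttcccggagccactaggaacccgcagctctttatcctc
Prdx1: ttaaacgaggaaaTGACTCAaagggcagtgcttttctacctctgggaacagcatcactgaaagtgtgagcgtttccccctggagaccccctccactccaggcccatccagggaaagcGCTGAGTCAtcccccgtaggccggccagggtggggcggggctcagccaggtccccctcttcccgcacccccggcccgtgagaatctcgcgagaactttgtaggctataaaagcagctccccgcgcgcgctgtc
Gclm: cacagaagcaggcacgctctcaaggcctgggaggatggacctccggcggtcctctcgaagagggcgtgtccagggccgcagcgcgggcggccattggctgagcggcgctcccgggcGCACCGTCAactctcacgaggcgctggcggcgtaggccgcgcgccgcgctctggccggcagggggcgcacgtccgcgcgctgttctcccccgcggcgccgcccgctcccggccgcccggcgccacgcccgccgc

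By day 6 most of the antioxidant genes stood above day 0, and 23 of the 37 had their highest mean on that day. Another 7 were highest at day 2 and 7 at day 0. The highest day was counted for the members only, so these counts have no share of all genes beside them. Their summed level averaged 5149 ± 302 CPM at day 0, 6127 ± 245 at day 2 and 9440.5 ± 238 at day 6. As a share of all counts, which no scaling factor touches, the members held 0.506% to 0.556% in the day 0 libraries, 0.666% to 0.699% in those of day 2 and 0.815% to 0.825% in those of day 6. The 3 days did not overlap in this share. edgeR's joint test found a difference between days for 34 of the 37 members, where 84.8% of the 14459 genes tested passed. The other 3 were Gclm, Prdx2 and Gpx3 (adjusted p = 0.105, 0.0805 and 0.246).

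**Figure D1:**
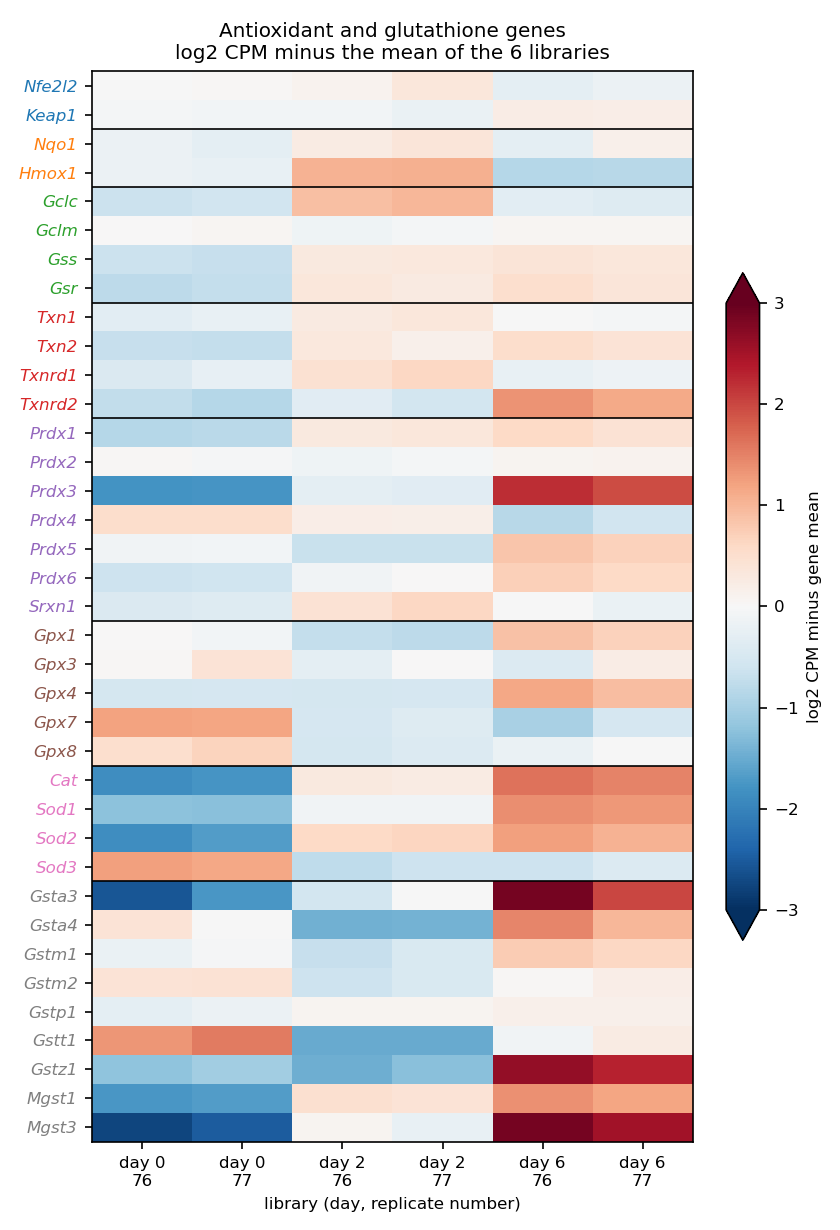
Heat map of the 37 members (rows, grouped by role with black lines) in the 6 libraries (columns), as log2 CPM minus each gene's mean over the libraries; colours stop at -3 and 3. Red blocks fill much of the day 6 columns, Hmox1 and Gclc are red at day 2 only, and Gpx7 and Sod3 are red at day 0 only.

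**Figure D2:**
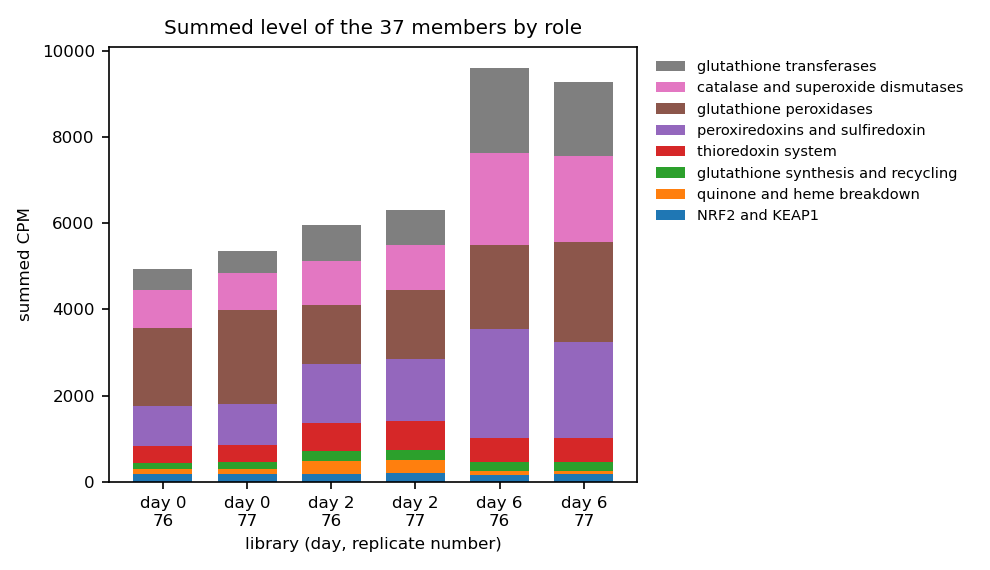
Stacked bars of the summed CPM of the 37 members in each library, coloured by role. The whole bar averages 5149, 6127 and 9440.5 CPM at days 0, 2 and 6, and the transferase and peroxiredoxin blocks grow the most.

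The comparison of day 2 with day 0 covers the time in induction medium. Most enzymes that make glutathione or reduce glutathione and thioredoxin rose, as did catalase, Sod1 and Sod2, while 3 of 5 glutathione peroxidases, 4 of 9 transferases and the secreted Sod3 fell. Of the 37 members 20 were higher at day 2, where 33.6% of all genes were, and 10 were lower, where 33.6% of all genes were. In either direction that was 81.1% of the members and 67.1% of all genes. The median log2 change of the members was 0.35, and that of all genes was 0.00. Past the threshold and over 2-fold were 16 members, or 43.2%, against 30.2% of all genes. Leaving out single libraries ended the calls of Nqo1 (day 0 replicate 76, day 2 replicate 77), Txnrd2 (either day 0 library, day 2 replicate 76), Prdx4 (day 0 or day 2 replicate 77), Gstm1 (day 0 replicate 77) and Gstp1 (day 0 replicate 76). Scaling by library totals also ended that of Prdx4, and DESeq2 that of Txnrd2.

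Between day 2 and day 6 the medium changed from induction to maintenance. Prdx3, Txnrd2, Sod2 and catalase rose further and 8 of 9 transferases were higher at day 6, whereas Hmox1, Gclc, Srxn1, Txnrd1 and Txn1, which had risen at day 2, fell. At day 6 21 members were higher than at day 2, where 38.2% of all genes were, and 7 were lower, where 27.5% were. In either direction that was 75.7% of the members and 65.7% of all genes. The members' median log2 change was 0.35 and that of all genes 0.12. Over 2-fold and past the threshold were 15 members, or 40.5%, against 29.6% of all genes. The scaling matters here: with library totals the median of all genes moved to -0.23, 16 members were higher and 13 lower, and the share of all called genes that were higher was 37.1% in place of 58.1%. The members called lower with library totals and not with TMM were Nqo1, Gclm, Gss, Gsr, Gpx7 and Gstp1. With library totals the rises of Keap1, Txn2, Prdx2, Gpx8 and Sod2 were lost, and the values of Keap1, Txn2 and Prdx2 turned negative. Without replicate 77 of day 0 the median of all genes was -0.01, and the rises of Keap1, Txn2, Prdx2 and Gpx8 were lost too. With only the libraries compared the median was also -0.01, and the same rises were lost. The rise of Gpx8 was also lost without replicate 76 of day 2.

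Over the whole course, day 6 against day 0, 24 members were higher, where 35.9% of all genes were, and 8 were lower, where 35.1% were. In either direction that was 86.5% of the members and 70.9% of all genes. The members' median log2 change was 0.81, and that of all genes was -0.01. Past the threshold and over 2-fold were 20 members, or 54.1%, against 36.9% of all genes. The risers were led by the membrane-bound transferase Mgst3, the soluble transferase Gsta3 and the mitochondrial peroxiredoxin Prdx3, and the fallers by Gpx7, Sod3 and Gstt1. With library totals the median of all genes was -0.26, 19 members were higher and 9 lower, and the share of all called genes that were higher was 38.0% in place of 50.6%. The small rises of Keap1, Gclc, Txn1, Srxn1 and Gstp1 were lost under that scaling, with Txn1 turning negative. The 3 comparisons share libraries, so their counts are not independent of each other.

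**Figure D3:**
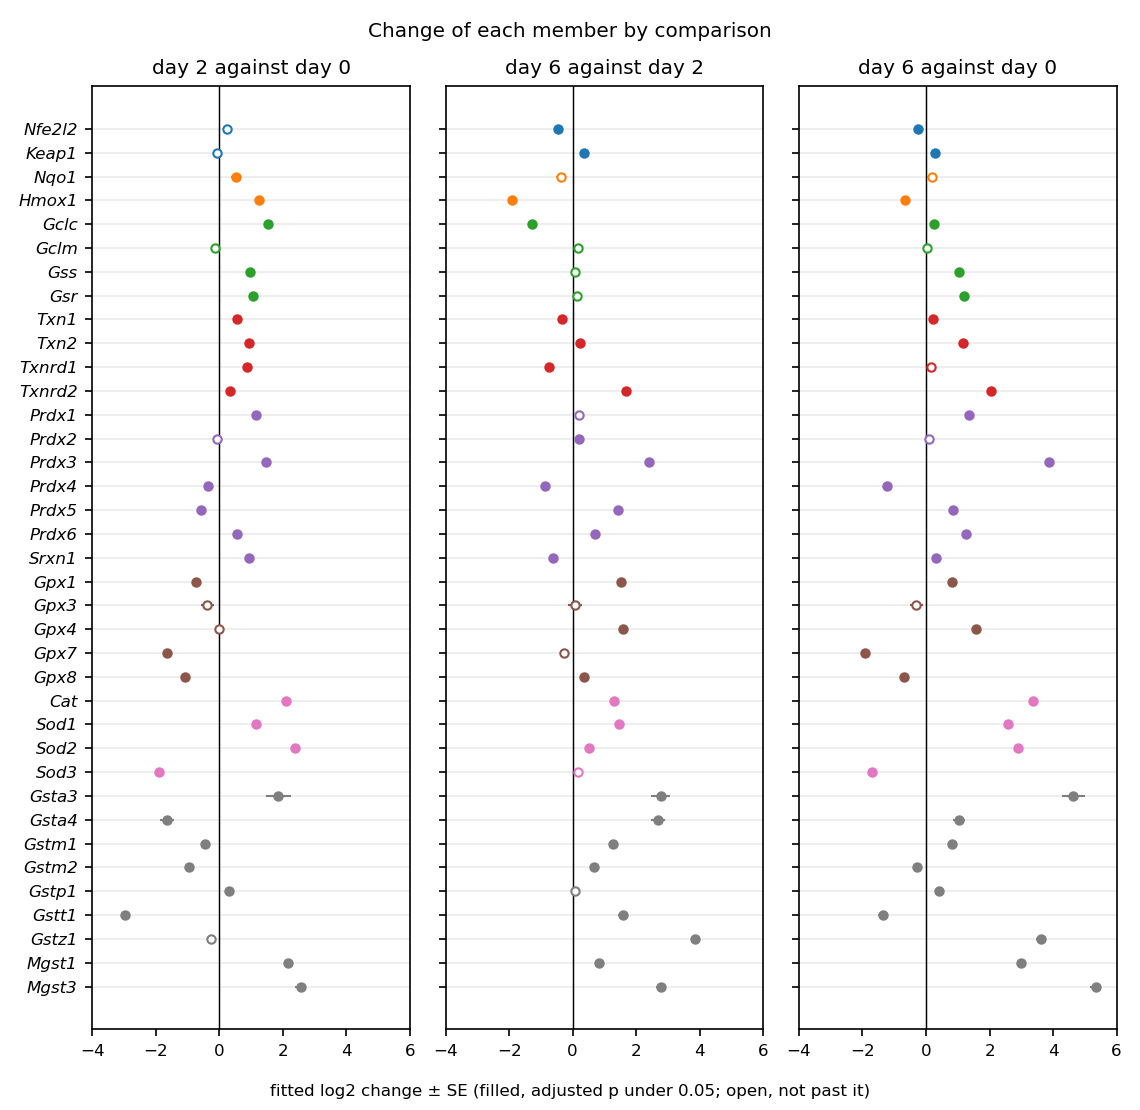
Fitted log2 change with its SE for each member in day 2 against day 0, day 6 against day 2 and day 6 against day 0; filled points passed an adjusted p of 0.05, and open points did not. Mgst3 lies farthest right at day 6 against day 0 (5.34), and Gstt1 farthest left at day 2 against day 0 (-2.96).

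Taking the adjacent comparisons together, 10 members rose in both steps (27.0%, where 11.8% of all genes did). They were Txn2, Txnrd2, Prdx3, Prdx6, Cat, Sod1, Sod2, Gsta3, Mgst1 and Mgst3. Another 5 rose and then fell (13.5%, where 15.1% of all genes did), namely Hmox1, Gclc, Txn1, Txnrd1 and Srxn1. The 7 that fell and then rose were Prdx5, Gpx1, Gpx8, Gsta4, Gstm1, Gstm2 and Gstt1 (18.9%, where 15.7% of all genes did). A rise with no call afterwards was found for Nqo1, Gss, Gsr, Prdx1 and Gstp1 (13.5%, where 6.63% of all genes did). Keap1, Prdx2, Gpx4 and Gstz1 had no call at day 2 and then rose (10.8%, where 10.7% of all genes did). Gpx7 and Sod3 fell and then had no call (5.41%, where 12.7% did), Prdx4 fell in both steps (2.70%, where 5.17% did), and Nfe2l2 had no call and then fell (2.70%, where 7.25% did). With library totals as the scaling 8 members rose in both steps and 10 rose and then fell, and without replicate 77 of day 6 12 rose in both steps.

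The regulators of the pathway moved little. Nfe2l2, which encodes NRF2 (chromosome 2, 75675513 to 75704641, minus strand), had 102 and 105 CPM at day 0, 111 and 131 CPM at day 2, and 84.0 and 90.9 CPM at day 6. The days did not overlap, with day 2 highest and day 6 lowest. edgeR gave a log2 change of -0.47 for day 6 against day 2 (SE 0.09, adjusted p = 0.00206) and of -0.24 for day 6 against day 0 (SE 0.09, adjusted p = 0.0429). Day 2 against day 0 gave 0.23 (SE 0.09, adjusted p = 0.0521), which missed the threshold, and passed it in 10 of the 12 alternatives, among them the replicate block (adjusted p = 0.0232). The call against day 0 at day 6 was lost without either day 0 library and without replicate 76 of day 6. Keap1, the adaptor that delivers NRF2 to a ubiquitin ligase (chromosome 9, 21229730 to 21239361, minus strand), had 66.6 and 66.0 CPM at day 0, 65.7 and 60.8 CPM at day 2, and 81.3 and 79.7 CPM at day 6. Its day 6 libraries lay above all the others. The log2 change was 0.28 for day 6 against day 0 (SE 0.07, adjusted p = 0.00559) and 0.35 for day 6 against day 2 (SE 0.07, adjusted p = 0.00196). Neither call held with library totals. The call for day 6 against day 2 was also lost with only the libraries compared (log2 change 0.22) and without replicate 77 of day 0 (0.21). The largest of these changes was 1.39-fold, for Nfe2l2 at day 6 against day 2.

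The classic NRF2 targets Hmox1 and Nqo1 both rose at day 2, and Hmox1 then fell. Hmox1, heme oxygenase 1, which breaks heme down to biliverdin (chromosome 8, 75093621 to 75100589, plus strand), had 122 and 118 CPM at day 0, 283 and 289 CPM at day 2, and 76.1 and 76.96 CPM at day 6. The replicates of each day lay close together and no days overlapped. The gene was 2.39-fold higher at day 2 than at day 0 (log2 change 1.26, SE 0.07, edgeR adjusted p = 2.06e-06) and 3.74-fold lower at day 6 than at day 2 (log2 change -1.90, SE 0.07, adjusted p = 2.88e-07). At day 6 it was also below day 0 (log2 change -0.65, SE 0.07). Nqo1, the quinone reductase, averaged 7.35 ± 0.376 CPM at day 0, 10.7 ± 0.697 at day 2 and 8.34 ± 1.75 at day 6. Its rise at day 2 was 1.45-fold (SE 0.16 on the log2 scale, adjusted p = 0.0169). Of the other comparisons of Nqo1 neither passed, with -0.36 at day 6 against day 2 and 0.18 at day 6 against day 0. Day 6 against day 2 passed as lower for Nqo1 in 6 of the 12 alternatives, among them library totals (-0.71) and leaving out replicate 77 of day 6 (-0.58).

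Of the genes that make and recycle glutathione, Gclc, Gss and Gsr rose at day 2, while Gclm did not pass in any comparison of the main scaling. Gclc, the catalytic subunit of glutamate-cysteine ligase, averaged 28.5 ± 0.946 CPM at day 0, 82.9 ± 3.53 at day 2 and 34.0 ± 1.29 at day 6. It was 2.92-fold higher at day 2 than at day 0 (log2 change 1.54, SE 0.07, edgeR adjusted p = 1.17e-06) and 2.44-fold lower at day 6 than at day 2. The remaining 1.20-fold excess of day 6 over day 0 (adjusted p = 0.0138) was lost with library totals, with DESeq2 and without replicate 76 of day 0. Gclm, the modifier subunit, averaged 77.4 ± 1.75, 70.9 ± 3.00 and 78.9 ± 0.628 CPM on the 3 days. With library totals it passed as lower at day 6 than at day 2 (log2 change -0.20) and than at day 0 (-0.22). Its log2 change at day 2 against day 0 was -0.13 (SE 0.07), while that of Gclc was 1.54. Gss, which adds glycine in the last step, averaged 12.4 ± 0.149 CPM at day 0, 24.3 ± 0.425 at day 2 and 25.3 ± 0.331 at day 6, 1.96-fold higher at day 2 than at day 0. Gsr, the reductase that returns oxidised glutathione to its thiol form, averaged 31.8 ± 1.10, 66.0 ± 2.24 and 72.2 ± 5.65 CPM, 2.07-fold higher at day 2 than at day 0. For Gss and Gsr, day 6 against day 2 did not pass (log2 changes 0.060 and 0.13). With library totals both passed as lower (-0.30 and -0.23), and without replicate 77 of day 6 Gsr passed as higher (0.21).

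The cytosolic thioredoxin pair was highest at day 2 and the mitochondrial pair at day 6. Txn1, cytosolic thioredoxin, averaged 177 ± 9.53 CPM at day 0, 263 ± 7.03 at day 2 and 208 ± 4.74 at day 6. Its reductase Txnrd1, a selenoprotein, averaged 137 ± 13.1, 253 ± 19.5 and 152 ± 5.09 CPM. Both rose at day 2 (log2 changes 0.57 and 0.89) and both fell by day 6 against day 2 (-0.34 and -0.74, edgeR adjusted p = 0.00407 and 0.000167). Mitochondrial thioredoxin, Txn2, averaged 71.3 ± 0.133, 137 ± 9.98 and 160.4 ± 8.96 CPM, and was 2.25-fold higher at day 6 than at day 0. Txnrd2, the mitochondrial reductase (chromosome 16, 18426384 to 18479073, plus strand), had 7.98 and 7.41 CPM at day 0, 10.5 and 9.17 CPM at day 2, and 33.8 and 29.5 CPM at day 6. Both day 6 libraries stood well above the rest. The log2 change was 1.69 for day 6 against day 2 (SE 0.12, adjusted p = 5.01e-06) and 2.04 for day 6 against day 0 (SE 0.12, adjusted p = 1.57e-06). Txn2 at day 6 against day 2 gave 0.23 (adjusted p = 0.0291), a call that 8 of the 12 alternatives ended or turned.

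Of the 7 genes of peroxiredoxins, thiol enzymes that reduce peroxides, and sulfiredoxin, 5 were higher and 1 was lower at day 6 than at day 0. Prdx3, the mitochondrial member (chromosome 19, 60864051 to 60874556, minus strand), had 49.0 and 49.4 CPM at day 0, 139 and 135 CPM at day 2, and 789 and 654 CPM at day 6. The 3 days were far apart relative to the gap between replicates. Prdx3 was 14.7-fold higher at day 6 than at day 0 (log2 change 3.87, SE 0.11, edgeR adjusted p = 3.99e-08) and 5.27-fold higher at day 6 than at day 2 (log2 change 2.40, SE 0.10, adjusted p = 5.57e-07). Prdx1, the cytosolic form, averaged 246 ± 3.73 CPM at day 0, 545 ± 16.6 at day 2 and 630.1 ± 53.3 at day 6, and its rise lay in the first step (2.22-fold). Prdx2, also cytosolic and abundant in red cells, averaged 151 ± 4.49, 142 ± 4.13 and 162 ± 1.26 CPM. Only day 6 against day 2 passed for Prdx2 (log2 change 0.19, adjusted p = 0.0397), and 10 of the 12 alternatives ended or turned that call. Prdx6, which also cleaves phospholipids, averaged 155 ± 2.63, 229 ± 15.5 and 374 ± 25.4 CPM, 2.41-fold higher at day 6 than at day 0.

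Prdx5, found in mitochondria, peroxisomes and cytosol, averaged 193 ± 3.52 CPM at day 0, 130.0 ± 0.305 at day 2 and 349 ± 22.6 at day 6. It fell by 0.57 on the log2 scale at day 2 against day 0 and rose 2.68-fold at day 6 against day 2. Prdx4, the form of the endoplasmic reticulum, was the only member that fell in both steps, averaging 74.5 ± 0.253, 58.8 ± 0.572 and 32.1 ± 4.26 CPM. It was 2.32-fold lower at day 6 than at day 0 (log2 change -1.22, SE 0.09, edgeR adjusted p = 6.69e-06). Srxn1, sulfiredoxin, which rescues over-oxidised peroxiredoxins, averaged 79.7 ± 2.07, 153 ± 14.1 and 98.9 ± 8.18 CPM. Its course, up 1.92-fold at day 2 against day 0 and down 1.55-fold at day 6 against day 2, had the same directions as those of Txn1 and Txnrd1. Its 1.24-fold excess at day 6 over day 0 was lost with library totals and without replicate 76 of day 0.

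**Figure D4:**
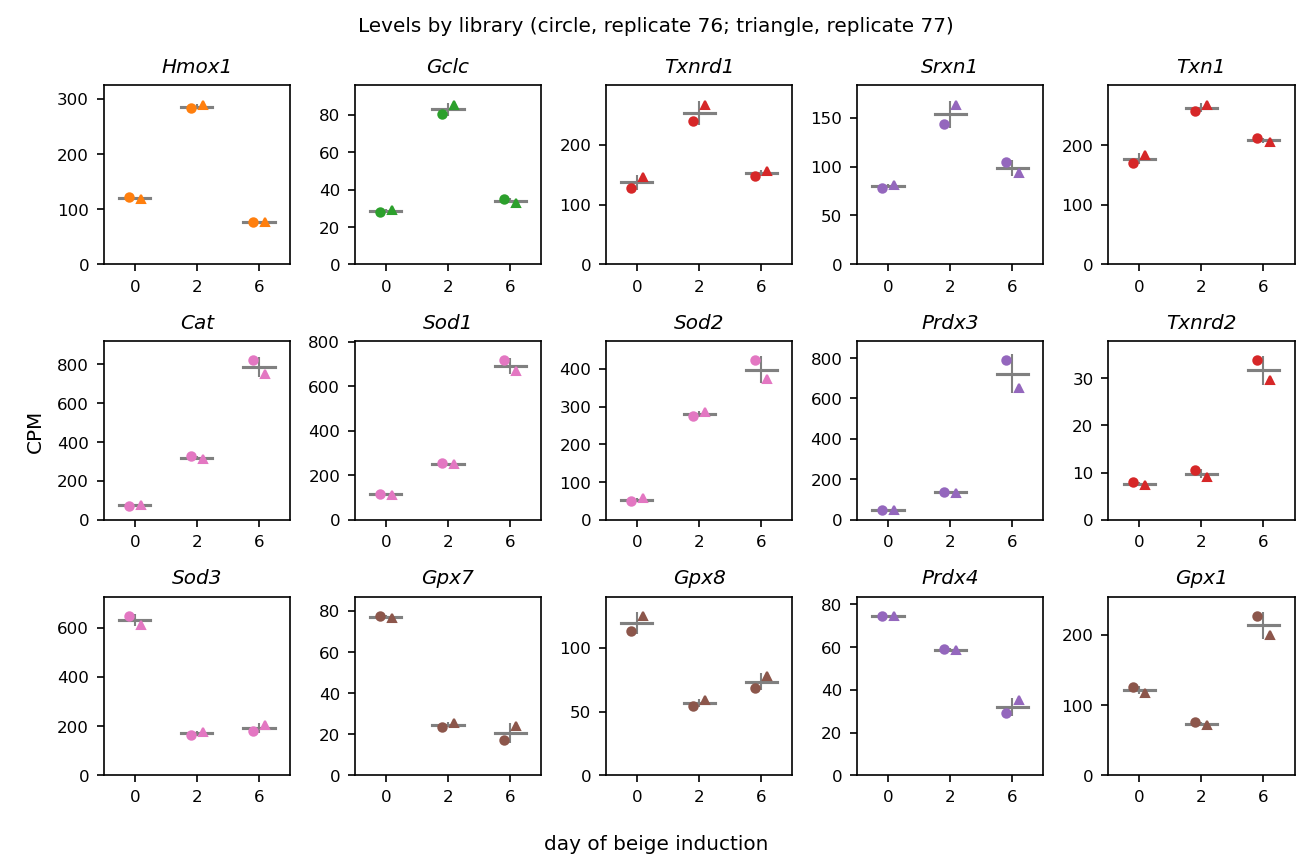
CPM in each library (circle, replicate 76; triangle, replicate 77) by day for 15 members, with the mean (line) and SD (bar) of the 2 libraries; colours mark the role and axes start at 0. The top row peaks at day 2, the middle row is highest at day 6, as in Cat with 821 and 748 CPM, and Sod3, Gpx7, Gpx8 and Prdx4 in the bottom row are highest at day 0.

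None of the 5 glutathione peroxidases rose at day 2. Gpx1, the cytosolic and mitochondrial form, averaged 122 ± 5.86 CPM at day 0, 73.7 ± 2.50 at day 2 and 214 ± 19.3 at day 6, 1.65-fold lower at day 2 than at day 0 and 2.90-fold higher at day 6 than at day 2. Gpx4, which reduces lipid peroxides within membranes and guards against ferroptosis, averaged 225 ± 0.923, 224 ± 2.81 and 664 ± 81.7 CPM. Day 2 against day 0 gave a log2 change of -0.0068 (SE 0.10), and Gpx4 was 2.97-fold higher at day 6 than at day 2 (log2 change 1.57, edgeR adjusted p = 3.13e-06). Other genes, chiefly a processed pseudogene, share 34.7% of the 50-base stretches of Gpx4, so its counts depend on how such reads were treated.

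Gpx7 and Gpx8, peroxidases of the endoplasmic reticulum that take part in protein folding, fell. Gpx7 averaged 77.1 ± 0.907 CPM at day 0, 24.7 ± 1.38 at day 2 and 20.5 ± 4.76 at day 6, which is 3.76-fold lower at day 6 than at day 0 (log2 change -1.91, SE 0.13, edgeR adjusted p = 4.67e-06). Gpx8 averaged 119 ± 8.49, 56.8 ± 3.30 and 73.4 ± 6.57 CPM, 2.09-fold lower at day 2 than at day 0. Gpx3, the secreted plasma form, was the most abundant member per exonic length on each day, at 801, 618 and 649 RPKM. Its libraries had 1265 and 1639 CPM at day 0, 1006 and 1234 CPM at day 2, and 924 and 1429.7 CPM at day 6. Replicate 77 was the higher library on every day. With all 6 libraries, the filter and no block no comparison of Gpx3 passed. Under the replicate block Gpx3 was lower at day 2 (log2 change -0.37, adjusted p = 0.0208) and at day 6 (-0.32, adjusted p = 0.0349) than at day 0. The first of these also passed without the filter, with only the libraries compared and without either day 6 library, and the second without the filter and without replicate 77 of day 6 (log2 change -0.64).

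Catalase and the superoxide dismutases of the cell interior rose in both steps. Cat, catalase, which breaks down hydrogen peroxide in peroxisomes (chromosome 2, 103453849 to 103485160, minus strand), had 73.2 and 77.6 CPM at day 0, 327 and 314 CPM at day 2, and 821 and 748 CPM at day 6. Each day stood clear of the one before. Cat was 4.25-fold higher at day 2 than at day 0 (log2 change 2.09, SE 0.09, edgeR adjusted p = 7.91e-07) and 10.4-fold higher at day 6 than at day 0 (log2 change 3.38, SE 0.09, adjusted p = 3.34e-08). Sod1, the copper and zinc enzyme of the cytosol (chromosome 16, 90220754 to 90226329, plus strand), had 115 and 114 CPM at day 0, 254 and 252 CPM at day 2, and 717 and 667 CPM at day 6. The fold at day 6 against day 0 was 6.04 (log2 change 2.60, SE 0.08, adjusted p = 5.62e-08), with similar log2 changes in the steps (1.14 and 1.45).

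Sod2, the manganese enzyme of mitochondria (chromosome 17, 13006846 to 13040063, plus strand), had 50.1 and 57.1 CPM at day 0, 275 and 285 CPM at day 2, and 423 and 373 CPM at day 6. Most of its 7.43-fold rise at day 6 against day 0 (log2 change 2.89, SE 0.10, edgeR adjusted p = 1.05e-07) lay in the first step, which was 5.22-fold. The second step, with a log2 change of 0.51, was lost with library totals. Sod3, the secreted enzyme that binds to the extracellular matrix (chromosome 5, 52363791 to 52371418, plus strand), had 648 and 612 CPM at day 0, 163 and 178 CPM at day 2, and 179.6 and 206 CPM at day 6. Both later days lay far below day 0. Sod3 was 3.70-fold lower at day 2 than at day 0 (log2 change -1.89, SE 0.10, adjusted p = 1.84e-06) and 3.26-fold lower at day 6 than at day 0, and day 6 against day 2 did not pass (log2 change 0.18). Per exonic length Sod3 stood at 169 RPKM at day 0, where Sod1 stood at 28.8, and at 51.6 RPKM at day 6, where Sod1 stood at 174.

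Of the 9 glutathione transferases, 4 were higher and 4 lower at day 2 than at day 0, and 7 were higher and 2 lower at day 6 than at day 0. The 2 microsomal members, Mgst1 and Mgst3, trimeric membrane proteins that also reduce lipid peroxides, rose in both steps. Mgst3 (chromosome 1, 167371966 to 167393841, minus strand) had 6.99 and 8.32 CPM at day 0, 50.04 and 40.1 CPM at day 2, and 344 and 272 CPM at day 6. It was 5.91-fold higher at day 2 than at day 0 (log2 change 2.56, SE 0.17, edgeR adjusted p = 4.90e-06) and 40.4-fold higher at day 6 than at day 0 (log2 change 5.34, SE 0.18, adjusted p = 6.98e-08), the largest change among the members. Mgst1 (chromosome 6, 138140316 to 138156755, plus strand) had 111 and 116 CPM at day 0, 515 and 490.4 CPM at day 2, and 953 and 835 CPM at day 6. The gap between replicates was small next to the gaps between days. Mgst1 was 4.43-fold higher at day 2 than at day 0 and 7.88-fold higher at day 6 than at day 0 (log2 changes 2.15 and 2.98, SE 0.10 each, adjusted p = 1.02e-06 and 7.50e-08).

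Gstz1, which also breaks down tyrosine as maleylacetoacetate isomerase (chromosome 12, 87147165 to 87164723, plus strand), had 15.0 and 16.8 CPM at day 0, 12.4 and 14.4 CPM at day 2, and 215 and 171 CPM at day 6. Days 0 and 2 lay close together and day 6 stood apart. Gstz1 was 14.5-fold higher at day 6 than at day 2 (log2 change 3.85, SE 0.14, edgeR adjusted p = 2.61e-07), the largest second step of any member, while day 2 against day 0 did not pass (log2 change -0.25, adjusted p = 0.145). Gsta3, an alpha-class enzyme that in mouse detoxifies aflatoxin (chromosome 1, 21240589 to 21265661, plus strand), had 1.89 and 3.34 CPM at day 0, 7.62 and 11.0 CPM at day 2, and 81.5 and 45.1 CPM at day 6. The replicates of each day differed by more than those of most members, yet no days overlapped. Its 24.8-fold rise at day 6 against day 0 carried a log2 SE of 0.37 (log2 change 4.63, adjusted p = 8.87e-06), and its rise at day 2 against day 0 one of 0.40 (log2 change 1.86, adjusted p = 0.00326).

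Gsta4, which clears the lipid aldehyde 4-hydroxynonenal (chromosome 9, 78182774 to 78209349, plus strand), had 10.1 and 7.58 CPM at day 0, 2.79 and 2.84 CPM at day 2, and 21.0 and 15.2 CPM at day 6. Day 2 was the low point and day 6 the high point, without overlap. Gsta4 was 3.15-fold lower at day 2 than at day 0 (log2 change -1.66, SE 0.22, edgeR adjusted p = 0.000234) and 6.44-fold higher at day 6 than at day 2 (log2 change 2.69, SE 0.22, adjusted p = 1.21e-05). Gstt1, a theta-class enzyme (chromosome 10, 75783813 to 75798584, minus strand), had 39.6 and 46.3 CPM at day 0, 5.47 and 5.54 CPM at day 2, and 14.6 and 18.8 CPM at day 6. Its level at day 2 was 7.78-fold lower than at day 0 (log2 change -2.96, SE 0.14, adjusted p = 1.41e-06), the largest change of any member in that step. Gstt1 recovered in part, 3.02-fold higher at day 6 than at day 2 (log2 change 1.59, SE 0.15) and 2.58-fold lower at day 6 than at day 0.

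The members of the mu and pi classes changed by at most 2.42-fold between days. Gstm1 averaged 56.5 ± 4.87 CPM at day 0, 41.1 ± 4.88 at day 2 and 99.3 ± 6.74 at day 6, 2.42-fold higher at day 6 than at day 2. Gstm2 averaged 142 ± 1.49, 73.1 ± 5.04 and 115 ± 9.10 CPM, 1.94-fold lower at day 2 than at day 0, and its deficit at day 6 against day 0 (log2 change -0.30, adjusted p = 0.0105 by edgeR) was lost without replicate 77 of day 0. Gstp1 averaged 103 ± 5.16, 128 ± 0.415 and 136 ± 0.229 CPM, 1.31-fold higher at day 6 than at day 0. The genes Gstp1 and Gstp2 are near copies, with 33.7% of the 50-base stretches of Gstp1 found in other genes, so reads could be split between them. For Gstm1 that share was 18.9%.

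**Figure D5:**
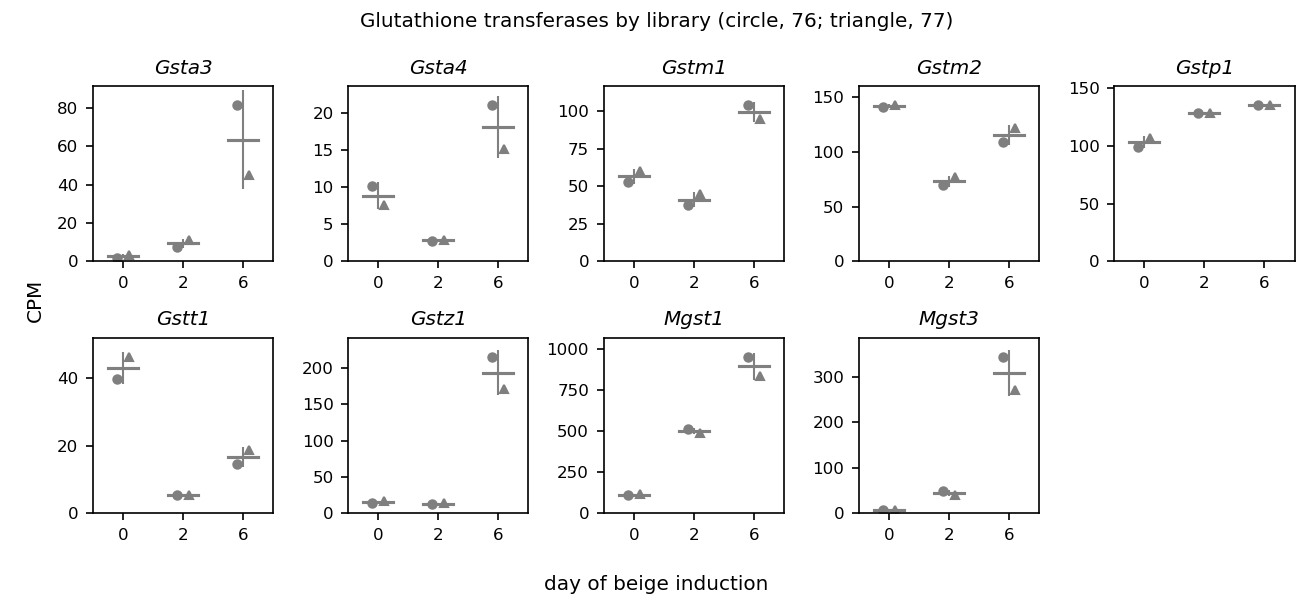
CPM in each library (circle, replicate 76; triangle, replicate 77) of the 9 glutathione transferases by day, with the mean (line) and SD (bar) of the 2 libraries; axes start at 0. Mgst1 and Mgst3 climb over the days, Gstz1 stays under 17 CPM until it reaches 215 and 171 at day 6, and Gstt1, Gsta4, Gstm1 and Gstm2 have their low point at day 2.

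The members were also grouped by where their proteins work. These groups too were drawn up with earlier results of these data known, so their counts are no independent evidence of a direction. The 4 members whose products work mainly in mitochondria, Txn2, Txnrd2, Prdx3 and Sod2, were higher at day 2 than at day 0, at day 6 than at day 2 and at day 6 than at day 0. Their sum was 1210.4 to 1413 CPM at day 6, against 178 to 185 CPM at day 0. Gpx1 and Prdx5, whose products are found in mitochondria and elsewhere, are not in that group and were lower at day 2 than at day 0 (log2 changes -0.72 and -0.57). With library totals the second step of the 4 kept 2 of the 4 calls, and the second-step call of Txn2 was ended or turned by 8 of the 12 alternatives. In the first step the call of Txnrd2 was lost under DESeq2, without either day 0 library and without replicate 76 of day 2. The 3 members grouped as endoplasmic reticulum, Prdx4, Gpx7 and Gpx8, were all lower at day 2 and at day 6 than at day 0. Their sum was 115 to 137 CPM at day 6, against 265 to 276 CPM at day 0. Under the alternatives all 3 stayed lower at day 6 than at day 0. The call of Prdx4 at day 2 against day 0 was lost with library totals and without replicate 77 of day 0 or of day 2. The microsomal Mgst1 and Mgst3 are not in that group and were 7.88-fold and 40.4-fold higher at day 6 than at day 0. Of the 5 selenoproteins, Txnrd1, Txnrd2, Gpx1, Gpx3 and Gpx4, 2 were higher and 1 lower at day 2 than at day 0, and 3 were higher and 0 lower at day 6 than at day 0.

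Ranked per exonic length within a day, Gpx3 was first on all 3 days. At day 0 Sod3 (169 RPKM) and Txn1 (168 RPKM) came next, and their order is within the spread of the libraries. At day 2 Txn1 (249.9 RPKM) and Mgst1 (249.7 RPKM) followed it, and at day 6 Prdx3 (488 RPKM), Mgst1 (444 RPKM) and Gpx4 (385 RPKM) did. Prdx3 lay above Gpx4 beyond the spread of the libraries, while the ranges of Prdx3 and Mgst1 overlapped. Txnrd2, Gss and Gstz1 were among the lowest at day 0, at 1.75, 2.09 and 3.12 RPKM, and Gsta3 was the lowest at 0.601 RPKM. These lengths are the union of annotated exons, which for Sod2 came to 10008 bases and lowers its RPKM. Apart from Gpx4, Gstp1 and Gstm1, described above, the members with the largest shares of 50-base stretches found in other genes were Sod2 (21.0%), Prdx5 (15.5%), Prdx2 (12.0%) and Gss (10.3%). Exons of neighbouring genes overlapped 19.1% of the exonic length of Prdx5, 15.4% of that of Gss, 12.2% of that of Gstz1, 11.5% of that of Prdx2 and 10.9% of that of Keap1.

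Further glutathione and transferase genes, 26 of 35 listed, could be tested. Beside this and the following lists stand the shares of all genes given above, which at day 6 against day 0 were 35.9% higher and 35.1% lower. At day 6 against day 0 17 were higher and 7 lower, and at day 2 against day 0 8 were higher and 12 lower. Mgst2, the third microsomal transferase, averaged 1.81 ± 0.175 CPM at day 0, 1.94 ± 0.244 at day 2 and 38.4 ± 2.71 at day 6, 21.3-fold higher at day 6 than at day 0, and day 2 against day 0 did not pass (log2 change 0.10). Hagh, which releases glutathione in the glyoxalase pathway, was 7.26-fold higher and Gstt2 3.90-fold higher at day 6 than at day 0. Chac1, which degrades glutathione, was 3.71-fold lower and Ggt5, an extracellular glutamyltransferase, 2.81-fold lower.

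Slc7a11, the cystine importer, averaged 8.64 ± 0.515 CPM at day 0, 27.4 ± 2.20 at day 2 and 3.85 ± 0.132 at day 6. Slc7a11 was 3.16-fold higher at day 2 than at day 0 and 7.12-fold lower at day 6 than at day 2. Cbs, which starts cysteine synthesis from homocysteine, was 6.74-fold higher at day 2 than at day 0 and 1.93-fold lower at day 6 than at day 2. Slc3a2, the partner chain of Slc7a11, averaged 203 ± 6.68, 203 ± 4.48 and 122 ± 1.70 CPM and was 1.67-fold lower at day 6 than at day 2.

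Other mu and theta transferases, named after their values were seen, fell with the members at day 2. Gstm6 was 11.1-fold lower at day 2 than at day 0 and Gstm7 3.08-fold lower, and Gstm4 was 1.67-fold lower. With Gstm1, Gstm2 and Gstm5, all 6 tested mu genes were lower at day 2 than at day 0, although the call of Gstm5 was lost with library totals, with DESeq2 and on leaving out any single library of day 0 or day 2, and that of Gstm1 without replicate 77 of day 0 (log2 change -0.22). Gstt2 and Gstt3 were 2.21-fold and 1.91-fold lower at day 2 than at day 0, as Gstt1 was 7.78-fold lower. Gstp2, the near copy of Gstp1, was 1.93-fold lower at day 2 than at day 0, where Gstp1 was 1.25-fold higher. At day 6 against day 2 Gstt2 was 8.60-fold higher, Gstt1 3.02-fold higher, and Gstt3 did not pass (log2 change -0.12).

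NADPH, which the reductases draw on, comes mainly from the pentose phosphate pathway, malic enzyme and isocitrate dehydrogenase. Of 21 genes listed under NADPH supply, folate enzymes among them, 14 were higher and 6 lower at day 6 than at day 0. Me1, cytosolic malic enzyme, averaged 87.4 ± 2.32 CPM at day 0, 172 ± 3.73 at day 2 and 3081 ± 473 at day 6, which is 35.3-fold higher at day 6 than at day 0. Taldo1 was 10.6-fold and G6pdx, the entry enzyme of the pentose phosphate pathway, 9.40-fold higher at day 6 than at day 0. The mitochondrial folate genes Aldh1l2 and Mthfd1l were 5.43-fold and 4.29-fold lower, and Me3, the mitochondrial malic enzyme, was 2.76-fold lower at day 6 than at day 0, a call lost without replicate 77 of day 0 (log2 change -1.13).

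Among 26 further genes known as NRF2 targets, 15 were higher and 6 lower at day 2 than at day 0. Of the 26, 5 are also on the NADPH supply list and 1 imports cystine. At day 6 against day 0 16 were higher and 3 lower, with 5 lower under library totals. Fth1, the ferritin heavy chain that stores iron, averaged 1103 ± 37.5 CPM at day 0, 5290.0 ± 407 at day 2 and 1918 ± 157 at day 6, 4.80-fold higher at day 2 than at day 0 and 2.76-fold lower at day 6 than at day 2. Gdf15, a stress hormone, was 3.31-fold higher at day 2 than at day 0 and 3.46-fold lower at day 6 than at day 2, and Ugdh, which makes UDP-glucuronate, was 2.48-fold higher at day 2 than at day 0 and 3.57-fold lower at day 6 than at day 2. These rose and fell in the same steps as Hmox1, Gclc and Srxn1. Others went the opposite way at day 2, among them Ephx1, an epoxide hydrolase that was 2.19-fold lower at day 2 than at day 0, Osgin1, 1.87-fold lower, and Aldh3a2, 1.69-fold lower.

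Among 13 partners and brakes of NRF2, 3 were higher and 7 lower at day 2 than at day 0, with 2 to 8 lower over the alternatives. At day 6 against day 0 6 were higher and 3 lower, and with library totals 6 were lower. Bach1, a repressor that competes with NRF2 at its sites, averaged 67.0 ± 2.43 CPM at day 0, 51.1 ± 10.2 at day 2 and 33.9 ± 5.43 at day 6. It was 1.98-fold lower at day 6 than at day 0. Bach2, its relative, averaged 4.22 ± 0.388, 0.248 ± 0.158 and 1.57 ± 0.389 CPM, 16.8-fold lower at day 2 than at day 0. Nfe2l1, which encodes NRF1, a factor that also binds the antioxidant element, was 1.82-fold higher at day 6 than at day 0, and Cul3, the scaffold of the KEAP1 ligase, 1.49-fold higher.

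Metal-binding genes and genes listed as sources of superoxide or peroxide were counted as well. The metallothioneins Mt1 and Mt2, which bind zinc and scavenge radicals, were 9.83-fold and 15.4-fold higher at day 2 than at day 0 and 2.15-fold and 4.37-fold lower at day 6 than at day 2. Of the 7 metal genes 5 were higher and 0 lower at day 6 than at day 0, with 1 lower under library totals. Of 11 tested genes listed as sources of superoxide or peroxide, 9 were higher and 2 lower at day 6 than at day 0, and with library totals 5 were higher. Aifm2 on that list, 14.6-fold higher at day 6 than at day 0, is known for reducing coenzyme Q and protecting lipids rather than for making peroxide. Cyba and Nox4, subunits of NADPH oxidases, were 3.10-fold and 1.44-fold lower, and the call of Nox4 was lost without replicate 76 of day 0 or replicate 77 of day 6.

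Among further thiol redox genes 21 could be tested, of which 15 were higher and 6 lower at day 6 than at day 0. Msra, which repairs oxidised methionine, averaged 3.20 ± 0.777 CPM at day 0, 7.21 ± 0.429 at day 2 and 71.3 ± 9.92 at day 6, 22.6-fold higher at day 6 than at day 0. The glutaredoxins Glrx and Glrx5 were 5.27-fold and 4.86-fold higher at day 6 than at day 0. Nxn, nucleoredoxin, was 3.87-fold lower, Sesn3, a sestrin, 2.33-fold lower, and Txndc5, a thioredoxin-like protein of the endoplasmic reticulum, 2.19-fold lower. The lists of further genes were drawn up with earlier results of these data known, so their counts are no independent evidence of a direction.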

How the data were processed

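RNA was measured by poly(A) RNA-seq in 6 libraries of wild-type stromal-vascular cells, 2 per day. Per the submitters' processing notes, the authors aligned reads with TopHat2 2.0.13 and counted them with HTSeq 0.9.1, with the builds mm10 and GRCm38 named. Not given in the sources used here: annotation, counting mode and strand. The deposited table holds raw counts per gene with no normalization, although its columns are named RPKM. Its 5 summary lines (2.62% to 3.23% outside features, 4.40% to 4.91% ambiguous, 4.16% to 9.05% not unique, as percent of gene counts and summary lines together) stayed out of library sizes and tests. No molecular identifiers are named, so PCR copies of a molecule were counted as reads.

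From these counts edgeR 4.0.16 in R 4.3.3 was run on all 6 libraries with 1 mean per day, TMM scaling, filterByExpr (14459 genes tested, 31349 untested) and the quasi-likelihood F test (3 residual degrees of freedom, common biological coefficient of variation 0.0830). P-values were adjusted by Benjamini-Hochberg over the 14459 genes, and calls needed an adjusted p under 0.05. The steps were tested on simulated data. CPM used the library sizes and factors of the fit, and RPKM the union of exons in GENCODE M21. The members and lists were chosen with earlier results of these data known. Values per library are given for Nfe2l2, Keap1 and the members among the 8 largest called changes of each comparison (15 genes), and for Gpx3, chosen after its values were seen. In other lists up to 3 genes per direction and comparison were named, apart from the further mu, theta and pi transferases, which were named after their values were seen.

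Same-day libraries differed beyond sampling noise (chi-square per degree of freedom 6.75, 7.53 and 26.3) and were counted as 2. The series' design calls them biological replicates, without saying what 76 and 77 mark. P-values therefore measure the spread of these libraries only, which may be technical. Deviations of same-numbered libraries from their day means correlated across genes with Pearson's r of 0.109 (days 2 and 0), 0.213 (days 6 and 2) and 0.112 (days 6 and 0). All of these passed the limit of 0.1. Spearman's rho, in the same order, was 0.059, 0.176 and 0.055. The main fit had no block, and a fit with that number as a block was an alternative. Others were DESeq2's size factors, library totals, the DESeq2 1.42.0 test, no filter, only the libraries compared, and leaving out each library.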

Additional observations from a re-analysis of the deposited data

How the results depend on the processing

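The counts of members called were within 1.5 times the main count in all alternatives, apart from members lower at day 6 than at day 2, which were 7 in the main fit and 13 with library totals. Leaving out each library gave 17 to 21 members higher and 8 to 12 lower at day 2 against day 0, 17 to 22 and 7 to 9 at day 6 against day 2, and 21 to 24 and 6 to 9 at day 6 against day 0. Of the values of single members, 1205 kept direction and side of the threshold and 46 changed sign, some of which also lost or gained a call. Among those that kept their sign, 47 fell short of the threshold and 34 newly passed. The replicate block changed the calls of Nfe2l2 (day 2 against day 0, adjusted p = 0.0232) and Gpx3 (day 2 and day 6 against day 0, adjusted p = 0.0208 and 0.0349) and no other call. With library totals the sign changed at day 2 against day 0 for Keap1 (0.043), Prdx2 (0.023) and Gpx4 (0.10). It changed at day 6 against day 2 for Keap1 (-0.010), Gclm (-0.20), Gss (-0.30), Gsr (-0.23), Txn2 (-0.13), Prdx1 (-0.15), Prdx2 (-0.17), Gpx3 (-0.28), Sod3 (-0.18) and Gstp1 (-0.28). At day 6 against day 0 it changed for Nqo1 (-0.068), Gclm (-0.22), Txn1 (-0.015), Txnrd1 (-0.095) and Prdx2 (-0.15). With DESeq2's size factors it changed for Gpx4 at day 2 against day 0 (0.034), Gss (-0.011) and Gpx3 (-0.0018) at day 6 against day 2, and Gclm at day 6 against day 0 (-0.0015). In the same comparisons the DESeq2 test gave Gpx4 0.041, Gss -0.019, Gpx3 -0.0099, Gstp1 -0.0015 (day 6 against day 2) and Gclm -0.0026. Without the filter Gpx4 gave 0.0051 at day 2 against day 0. With only the libraries compared, day 6 against day 2 gave Gss -0.071, Gsr -0.0016, Gpx3 -0.060 and Gstp1 -0.054. Over the fits that left out each library, day 2 against day 0 spanned -0.12 to 0.072 for Keap1, -0.16 to 0.042 for Gclm, -0.10 to 0.029 for Prdx2 and -0.011 to 0.14 for Gpx4. Day 6 against day 2 spanned -0.078 to 0.073 for Gss, -0.0079 to 0.21 for Gsr, -0.28 to 0.35 for Gpx3 and -0.060 to 0.079 for Gstp1, and day 6 against day 0 spanned -0.041 to 0.39 for Nqo1. The cause of these changes was not tested. With 1 library left on a day, that library is assumed to vary like those of the other days. With 2 libraries per day the fit had 3 residual degrees of freedom.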
